A study of Mus musculus with 10 samples.

Results

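Cytosolic ribosomal proteins are the protein components of the ribosomes that translate nuclear-encoded mRNA. The genes described here are the protein-coding mouse genes whose symbol begins with Rpl (large, 60S subunit) or Rps (small, 40S subunit), leaving out the Rps6k kinases and symbols marked -ps as pseudogenes. The rule used names only and found 91 of the 56750 features in the deposited count table. Of these, 46 encode canonical large subunit proteins and 31 canonical small subunit proteins. A further 8 are paralogs (second genes for a subunit protein), 5 carry symbols of retrotransposed copies, and 1, Rps19bp1, encodes an Rps19 binding protein that is not part of the ribosome.

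The libraries came from flash frozen sarcomas of 2 mouse models. The dFLEx group held 3 tumors (170019, 170024 and 170025) of the genotype dFLEx CDS +/-, in which an HA-tagged CIC::DUX4 fusion at Rosa26 is driven by the CAG promoter once both Cre and FLP recombinase have acted. Per the study's methods, such tumors are induced in adult mice by electroporating Cre and FLPE plasmids into the gastrocnemius muscle, so a tumor grows inside skeletal muscle. The KP group held 2 tumors (3800 and 3802) whose genotype includes p53fl/fl, floxed alleles of the gene for p53. How the KP tumors were induced, the ages at collection and the strains were not used here. RNA of each tumor was split into duplicates, and 9 libraries were used, 6 from dFLEx and 3 from KP, with 1 from 3802. They held 20503474 to 46302223 counts each. Libraries of a tumor were summed for tests, since duplicates of the same RNA are not separate tumors. The 3802 library had the fewest counts and the most features with any count, 36904 against 24280 to 31768 in the others.

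In vertebrates each subunit takes up its proteins in fixed proportion, and unassembled ribosomal proteins are degraded, so their mRNAs are usually abundant and kept at related levels. Most of these mRNAs begin with a cytosine followed by a run of pyrimidines, the 5′ terminal oligopyrimidine (TOP) motif, through which the mTORC1 pathway and the RNA binding protein Larp1 control their translation. Free Rpl5 and Rpl11 can bind Mdm2 and so stabilise p53. A few subunits have a paralog with restricted expression, such as Rpl3l, which replaces Rpl3 in heart and skeletal muscle, and Rps27l, a p53-responsive relative of Rps27.

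The starts of these genes were read first, since the TOP motif is the feature that the family is known to share in sequence. RefSeq start sites (GRCm38.p6) were given for 67 of the 91 genes, and the sequences shown are 30 bases around the annotated start, 15 before it and 15 from it on, 5′ to 3′ on the transcribed strand. Capitals mark a run that opens with C within 5 bases of the annotated start and continues for at least 5 pyrimidines in all. The first group, with a run, pairs Rps27 with its retrotransposed copy Rps27rt and adds the paralog Rpl22l1 and canonical members whose values are described further on.
Rps27 (chr3:90213634-90213663, minus strand): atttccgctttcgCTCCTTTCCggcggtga
Rps27rt (chr9:114982725-114982754, minus strand): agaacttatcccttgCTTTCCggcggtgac
Rpl22l1 (chr3:28805493-28805522, plus strand): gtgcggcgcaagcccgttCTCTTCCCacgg
Rpl38 (chr11:114668565-114668594, plus strand): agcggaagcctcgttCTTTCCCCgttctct
Rpl13a (chr7:45128731-45128760, minus strand): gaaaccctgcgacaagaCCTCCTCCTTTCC
Rps15a (chr7:118116133-118116162, minus strand): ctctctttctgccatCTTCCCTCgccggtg
Rps10 (chr17:27635230-27635259, minus strand): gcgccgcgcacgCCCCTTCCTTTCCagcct
The second group held no such run within 5 bases of the annotated start. It contains 3 abundant canonical members and the muscle paralog Rpl3l, at 1 of its 2 annotated starts.
Rplp0 (chr5:115559452-115559481, plus strand): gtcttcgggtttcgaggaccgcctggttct
Rpsa (chr9:120127751-120127780, plus strand): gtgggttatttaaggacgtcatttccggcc
Rps3 (chr7:99483695-99483724, minus strand): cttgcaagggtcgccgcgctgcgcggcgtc
Rpl3l (chr17:24727811-24727840, plus strand): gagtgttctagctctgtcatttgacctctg

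A run was present in 27 of the 57 canonical members with a start sequence (47.4%), in 17 of 69 genes for mitochondrial ribosomal proteins (24.6%) and in 22.4% of 15311 protein-coding genes. The letters CTTTC lay in the 30 bases of 16 canonical members (28.1%) and of 4.36% of all protein-coding genes, read on the transcribed strand only and allowed to overlap a run. An annotated start can lie several bases from the start in use, so a missing run says only that these letters were not in this window. The 27 members with a run and the 30 without had median log2 fold changes, dFLEx over KP, of 0.63 and 0.71, close to each other beside the quartiles of 0.52 to 0.86 and 0.49 to 0.92. Within groups their median log2 ratios were 1.95 and 1.77 for 170019 over 170025, and 1.17 and 0.70 for 3802 over 3800. Their median coding lengths were 435 and 502.5 bases, and the part of the run in these ratios was not tested.

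The ribosomal protein genes took a large and very uneven share of the counts, and the unevenness lay between tumors of the same group. Their summed counts were 19.5% and 20.6% of all counts in the libraries of dFLEx tumor 170019, 11.1% and 11.5% in those of 170024, and 5.77% and 5.99% in those of 170025. In KP they were 5.46% and 5.71% in the libraries of 3800 and 16.0% in the library of 3802. Duplicates of a tumor therefore lay close together, while the highest and the lowest tumor differed 3.41-fold within dFLEx and 2.86-fold within KP. The Wilson 95% intervals of these shares, which cover counting error only, spanned less than the gap between any pair of duplicates, the widest being 20.56% to 20.59%.

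**Figure D1:**
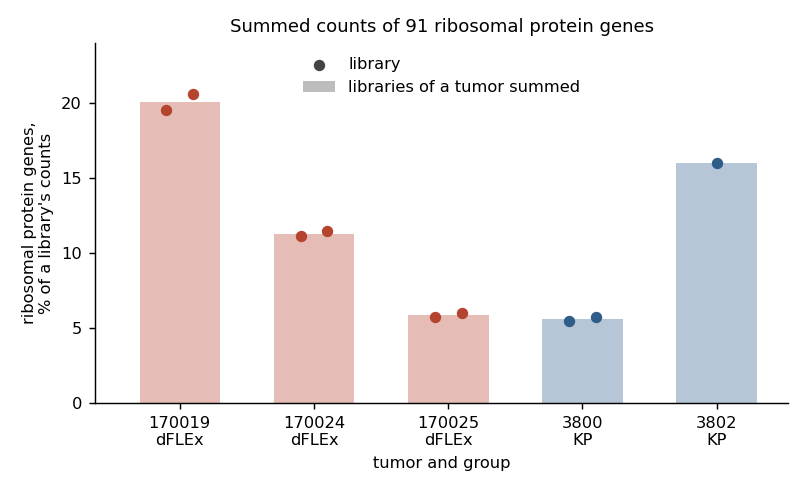
Share of each library's counts (y axis, percent) taken by the 91 ribosomal protein genes, by tumor (x axis). Points are libraries and bars are the libraries of a tumor summed, red for dFLEx and blue for KP; 170019 (20.0%) and 3802 (16.0%) stand above the other tumors of their own groups, and the bars of 170025 (5.87%) and 3800 (5.61%) are nearly level.

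Between groups the share did not separate. It was 12.4% ± 7.15 in dFLEx tumors (SD, n = 3) and 10.8% ± 7.36 in KP tumors (SD, n = 2), and permuting the tumors between groups in all 10 ways (exact permutation test, two-sided) gave p = 0.8, where the smallest p that 3 against 2 tumors allow is 0.2. The difference of 1.58 percentage points became -2.24 without 170019 and -3.63 without 3800, and 6.78 without 3802. Both subunits took part: large subunit genes held 9.52%, 5.92% and 3.29% of the counts of the dFLEx tumors (in the order 170019, 170024, 170025) and 3.03% and 7.73% of those of the KP tumors (3800, 3802). Small subunit genes held 10.4%, 5.30% and 2.54%, and 2.54% and 8.24%. The small subunit sum was 1.09 times the large subunit sum in 170019 and 1.07 times in 3802, against 0.896 in 170024, 0.770 in 170025 and 0.838 in 3800. The balance of the subunits thus moved with the total within each group, but not between 170025 and 3800. A single small subunit gene, Rps14, held 11.1% and 8.82% of the family's counts in 170019 and 3802. In 170024, 170025 and 3800 it held 5.59%, 3.34% and 4.79%. The part of Rps14 in this balance was not tested.

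Several other quantities differed between these tumors, some in the order of the share and some not. Their part in the share was not tested. Mitochondrially encoded genes ran opposite to the share within both groups. They held 0.379% of counts in 170019 and 0.440% in 3802, against 1.01% in 170024, 1.49% in 170025 and 1.03% in 3800. Nuclear genes for mitochondrial ribosomal proteins held 0.743% and 0.656% in 170019 and 3802, and 0.536%, 0.283% and 0.414% in 170024, 170025 and 3800. The -ps pseudogenes of the family held at most 0.111% in any tumor. In bulk RNA, more cells of a type and more RNA per cell cannot be told apart. The summed levels of 9 marker lists are given as CPM (counts per 1000000 counts, TMM-scaled), in the order 170019, 170024, 170025 for dFLEx and 3800, 3802 for KP. The sums of macrophage and of T cell markers ran in the order of the share within both groups. The 7 macrophage markers summed to 754, 698 and 571 CPM in dFLEx and to 1228 and 4018 CPM in KP, and the 7 T cell markers to 23.1, 15.8 and 13.97 CPM and to 16.9 and 60.4 CPM. C1qa alone had 475, 352 and 165 CPM in dFLEx and 509 and 3099 CPM in KP. Of the 7 macrophage markers, only 2 were higher in 170019 than in 170025 and 3 higher in 3802 than in 3800. For the 7 T cell markers these numbers were 5 and 7. Proliferation markers summed to 678, 611 and 1004 CPM and to 1019 and 308 CPM, and erythroid markers to 830, 1121 and 377 CPM and to 70.3 and 1794 CPM. Neither sum kept the order of the share, or its reverse, within dFLEx. The sum of the 7 fibroblast markers ran opposite to the share within both groups, at 2266, 2732 and 4826 CPM and at 2132 and 1029 CPM. Col3a1 alone had 1478, 1972 and 4257 CPM and 1952 and 302 CPM. Of the 7, 3 were higher in 170019 than in 170025 and 5 higher in 3802 than in 3800, so the list did not run 1 way. B cell, neutrophil, endothelial and myocyte markers did not follow it within dFLEx, where 170019 was the lowest for B cell, neutrophil and myocyte markers and 170025 the highest for endothelial markers.

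Levels of single genes are given from here on as CPM of the tumor's summed counts. The median of the 77 canonical members took the order, from high to low, 170019 (2118 CPM), 170024 (1273 CPM), 3802 (1074 CPM), 170025 (691 CPM) and 3800 (529 CPM). The order was shared by most members: 170019 was the highest of the 5 tumors for 71 of the 77, and 3800 was the lowest for 47, 170025 for 19 and 3802 for 11. Among the 88 members that passed the low-count filter, 80 (90.9%) ran 170019, 170024, 170025 from high to low, against 32.0% of all 24743 tested genes. In KP, 75 (85.2%) were higher in 3802 than in 3800, against 53.4% of all tested genes. Both held for 71 members (80.7%), against 26.1% of all tested genes and 57.1% of the tested genes for mitochondrial ribosomal proteins. The order is that of the members' own median, so these percentages describe how widely it held and are no test of it. Median coefficients of variation between duplicates, over canonical members, were 2.64% to 5.71%.

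**Figure D2:**
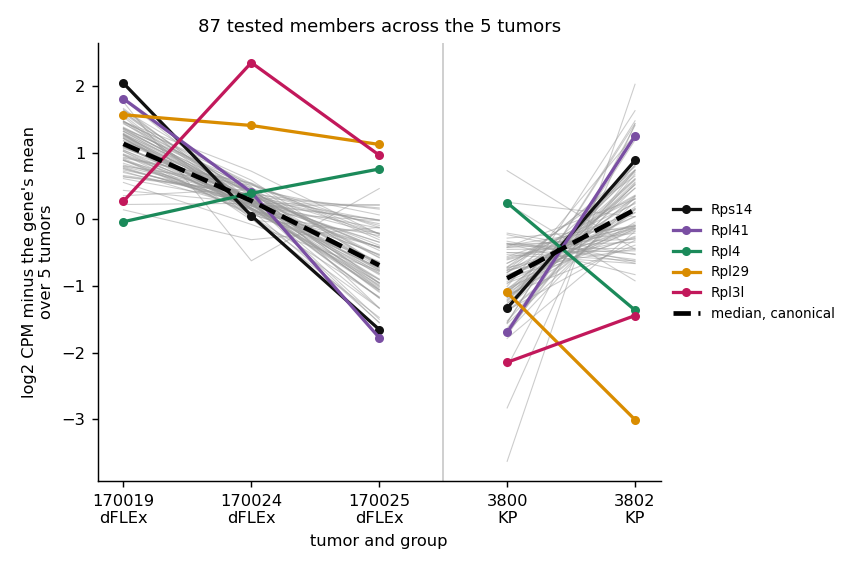
Level of 87 tested ribosomal protein genes in each tumor (x axis), as log2 CPM minus the gene's own mean over the 5 tumors (y axis); Rpl27rt is left out because 3800 had no count. Grey lines are single genes, the dashed line is the median of the canonical members, and coloured lines mark Rps14 and Rpl41, which follow the median with a wider swing, Rpl4, which runs against it, and Rpl29 and Rpl3l, which lie higher in all 3 dFLEx tumors than in both KP tumors.

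The size of the swing differed widely among members. The highest tumor stood a median of 4.51-fold above the lowest over the canonical members, with a range of 1.76-fold to 23.9-fold. Rps14, a small subunit protein known for its loss in 5q- syndrome, had 26294, 6620 and 2025 CPM in 170019, 170024 and 170025, and 2529 and 11776 CPM in 3800 and 3802. That is a 12.99-fold range within dFLEx and a 4.66-fold range within KP, and Rps14 alone made up 11.1% of the family's counts in 170019 against 3.34% in 170025. Rpl41, one of the shortest proteins encoded in the genome, had 7746, 2929 and 644 CPM in dFLEx and 681 and 5267 CPM in KP, a 12.03-fold and a 7.74-fold range. Both genes were among the highest in 170019 and 3802 and overlapped between the groups.

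Rpl4, a large subunit protein that lines the exit tunnel, did the opposite. It is singled out here after its values were seen. It had 856, 1150 and 1482 CPM in 170019, 170024 and 170025, and 1043 and 341 CPM in 3800 and 3802, so the tumors with the largest family share had its lowest levels within their groups. Rpl4 was the only one of the 77 canonical members that was lower in 170019 than in 170025, while 66 of the 77 were higher in 3802 than in 3800.

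Across the 77 canonical members, the log2 ratio of 170019 over 170025 and that of 3802 over 3800 had a Pearson r of 0.83 and a Spearman rho of 0.81. This is a description across genes of the same libraries, which are not independent replicates, and the points share gene length, base composition and mappability. The median log2 ratio was 1.90 in dFLEx and 1.05 in KP. At least a 2-fold excess of 170019 over 170025 was seen in 69 of the 88 tested members (78.4%), beside 35.7% of all tested genes and 22.5% of tested protein-coding genes. For 3802 over 3800 it was 46 of 88 (52.3%), beside 39.1% and 25.1%. Both ratios run in the direction of the members' own share, here and in the length ranges below. An excess in members is therefore partly built in.

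**Figure D3:**
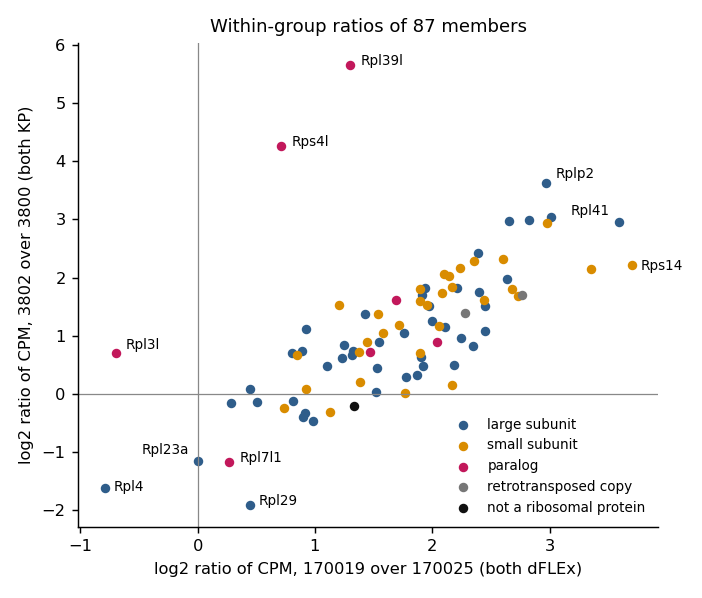
Log2 ratio of CPM between 2 dFLEx tumors (x axis, 170019 over 170025) and between the 2 KP tumors (y axis, 3802 over 3800), 1 point per tested member, coloured by class. Most points lie above and to the right of 0 on both axes, with Rps14 and Rpl41 far out, and Rpl4 is below 0 on both.

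Short genes showed the larger ratios, inside the family and outside it, so the members were set beside other protein-coding genes of the same coding length. For 170019 over 170025, the median log2 ratio of other genes was 1.28 at coding lengths up to 300 bases (214 genes), 0.77 from there to 600 bases (1428 genes) and 0.18 to 900 bases (1890 genes), and it was -1.68 above 3000 bases (1984 genes). The ribosomal protein genes had 2.23 (11 members), 1.91 (50 members) and 1.32 (22 members) in the first 3 of these ranges. For 3802 over 3800 the other genes had 0.68, 0.18 and -0.27 and the members 1.82, 1.16 and 0.69. The members thus lay above the other genes of their length in both groups by 0.96 to 1.14 log2 units in each of these 3 ranges. The range up to 300 bases holds only 11 members, and the 4 members from 900 to 1500 bases (Rpl3, Rpl4, Rplp0 and Rpl3l) had medians of 0.10 and 0.47 beside -0.28 and -0.57 in other genes. Over the canonical members, coding length on a log2 scale and the 2 log2 ratios had Pearson r of -0.50 and -0.46.

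**Figure D4:**
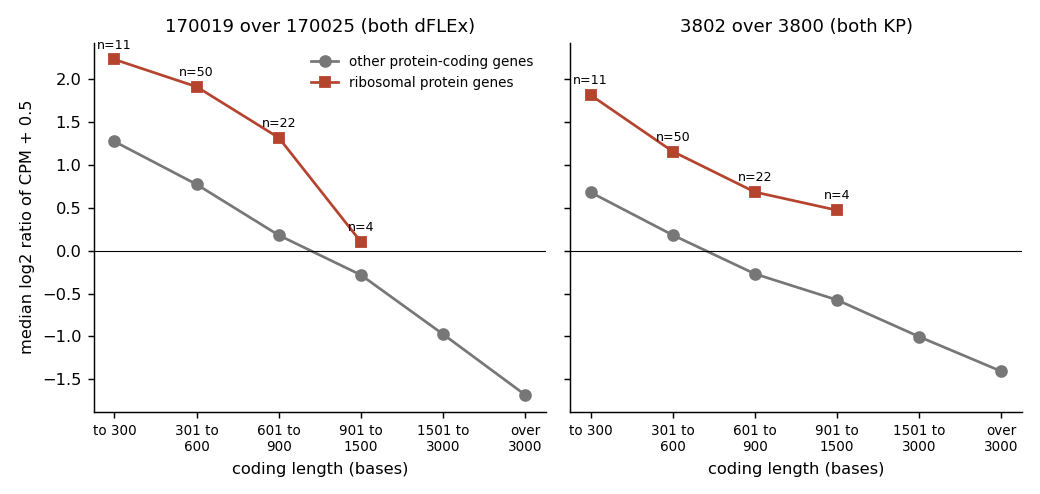
Median log2 ratio of CPM + 0.5 between tumors of the same group (y axis) by coding length in bases (x axis), for ribosomal protein genes (red squares, with their number) and other protein-coding genes (grey circles, mean level 1 CPM or more). Both lines fall with length in both panels, and the red line is above the grey one wherever members exist, by 0.39 to 1.14 log2 units in dFLEx and 0.96 to 1.14 in KP.

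The proportions among the members were kept better between some tumors than others. Over the 77 canonical members, the levels per kilobase of exon had a Spearman rho of 0.95 between 170019 and 170024 and also between 170019 and 3802, tumors of different groups, and of 0.67 between 170025 and 3802. Once the median was taken off, the log2 ratios had an SD of 0.41 between 170019 and 170024, 0.47 between 170025 and 3800, and 1.22 between 170025 and 3802. The 10 canonical members with the most counts made up 38.99% of the family's counts in 170019 and 45.5% in 3802, against 31.9%, 28.7% and 32.6% in 170024, 170025 and 3800.

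The dFLEx and KP tumors were then compared gene by gene, which asks whether the fusion-driven tumors differ from KP tumors in any ribosomal protein mRNA. With edgeR's quasi-likelihood test on tumor sums and Benjamini-Hochberg adjustment, 0 of the 88 tested members passed an adjusted p of 0.05, beside 0.182% of all tested genes. At an unadjusted p under 0.05 there were 2 members, Rpl29 and Rpl3l, beside 10.6% of all tested genes. Those 2 passed the adjusted threshold in DESeq2 on the same tumor sums, beside 6.66% of all genes given an adjusted p, and in edgeR with no filter on low counts, beside 1.98%. Limma-voom on libraries, with a random effect for tumors, called Rpl29, beside 2.78% of genes. Fits that count each library as a sample of its own called more, 3 members beside 17.1% of genes in edgeR, 2 beside 12.7% with the duplicate number as a replicate block and 8 beside 20.4% in DESeq2, and their p-values rest on duplicates of the same RNA. The share of members called was below that of all genes in each of these fits except the one with no filter, where it was 2 of 90. Of the 88, 15 had every dFLEx tumor above both KP tumors, beside 13.7% of all tested genes, and 0 had every dFLEx tumor below both, beside 11.7%. The 15 were Rpl3l and 14 canonical members, the large subunit genes Rpl3, Rpl5, Rpl6, Rpl7a, Rpl10, Rpl12, Rpl15, Rpl22, Rpl23, Rpl29 and Rpl31 and the small subunit genes Rps3a1, Rps6 and Rps19. They are listed because their groups did not overlap, so their number is read only against that background.

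Most log2 fold changes were above 0 and small beside their errors. The median over members was 0.68, against -0.18 over all tested genes, and 78 of 88 were above 0, against 43.7% of all tested genes. The median rested on the tumors named above: it was 0.07 without 170019, 0.48 without 3800 and 1.40 without 3802, against medians over all genes of -0.16, -0.07 and 0.34. With library totals in place of TMM the median over all genes was -0.47 and that of members 0.32, with 69 of 88 above 0, and once a trend over GC content and length was taken out of every tumor the members had 0.30, with 64 of 87 above 0, against -0.07 over all genes. Large and small subunit genes had medians of 0.66 and 0.68, and standard errors of members ran from 0.50 to 1.83 with a median of 0.73.

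**Figure D5:**
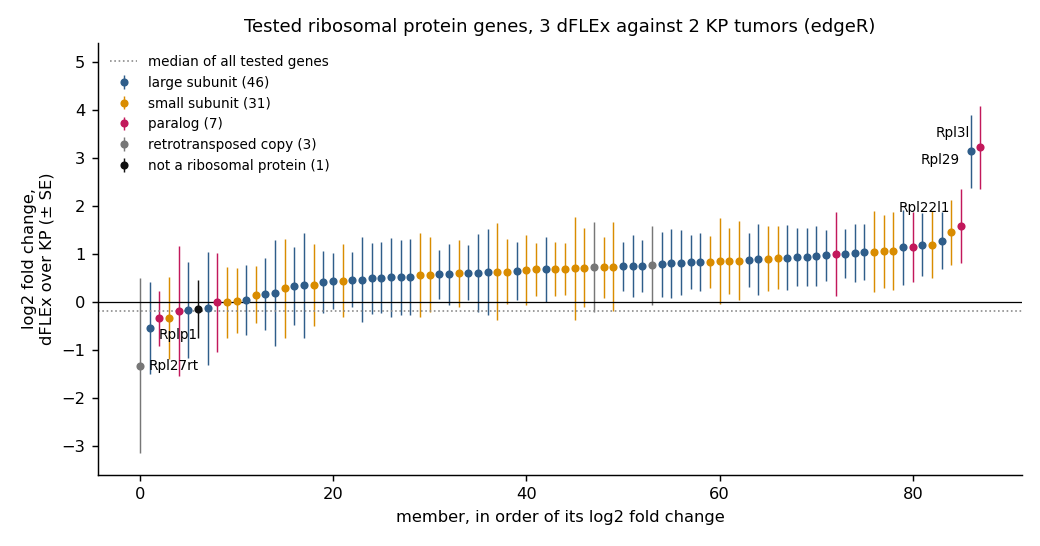
Log2 fold change of each tested member (y axis, dFLEx over KP, error bars are SE from edgeR, 3 against 2 tumors), in order of size along the x axis and coloured by class. Most members lie between 0 and 1 with errors of similar size, Rpl29 (3.14) and Rpl3l (3.22) stand apart at the top, and the dotted line is the median of all tested genes (-0.18).

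Rpl29, a surface protein of the large subunit, had the clearest separation among canonical members. It is on chromosome 9 (GRCm39, 106306653 to 106308767), and none of its exonic bases is shared with another gene. Its level was 737, 659 and 541 CPM in 170019, 170024 and 170025, and 116 and 30.8 CPM in 3800 and 3802. Single libraries were scaled with TMM factors of their own, so their CPM are not on the scale of the tumor sums. On that scale the 6 dFLEx libraries lay between 507 and 789 CPM and the 3 KP libraries between 31.8 and 110 CPM, so every dFLEx library was above every KP library. The group means were 645 ± 98.7 CPM (SD, n = 3) and 73.3 ± 60.1 CPM (SD, n = 2). The log2 fold change was 3.14 (SE 0.75, adjusted p = 0.165, edgeR). Over the 15 alternative settings it stayed between 2.45 and 3.28, with adjusted p from 1.92e-12 (DESeq2, duplicates as samples) to 0.181. Leaving out single tumors gave 2.496 (without 3802) to 4.55 (without 3800). Rpl29 was among the 11 canonical members lowest in 3802, and its dFLEx levels spanned less than those of most of the family. Its 3 -ps copies held 0.127% as many counts as the gene.

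Rpl3l, the striated muscle paralog of Rpl3, lies on chromosome 17 (24946794 to 24955117). It had 19.0, 80.3 and 30.6 CPM in 170019, 170024 and 170025, and 3.55 and 5.77 CPM in 3800 and 3802. Every dFLEx tumor was above both KP tumors, and 170024 was the highest. Its log2 fold change was 3.22 ± 0.86 (SE), at an adjusted p of 0.204 by edgeR, and with single tumors left out it ran from 2.38 (without 170024) to 3.62 (without 3802). The 7 myocyte markers summed to 7736, 30749 and 8455 CPM in the dFLEx tumors and to 1425 and 3859 CPM in the KP tumors. All 7 had log2 fold changes above 0, beside 43.7% of all tested genes, with a median of 2.53. Of the 7, 5 had an unadjusted p under 0.05, beside 10.6% of all tested genes, and 0 were called, beside 0.182%. None was at 0 in any tumor. The part of muscle RNA in the Rpl3l difference was not tested.

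Rpl3 itself, which sits at the peptidyl transferase centre and is far more abundant, had 2946, 1581 and 1595 CPM in dFLEx and 631 and 1053 CPM in KP (log2 fold change 1.28, SE 0.59, adjusted p = 0.520, edgeR). Every dFLEx tumor was above both KP tumors. Rps19, the small subunit protein most often mutated in Diamond-Blackfan anemia, separated in the same way, with 2110, 1176 and 705.5 CPM in dFLEx and 318 and 658 CPM in KP (log2 fold change 1.45, SE 0.68, adjusted p = 0.539, edgeR), though 170025 lay close above 3802. The log2 fold change of Rpl3 was 0.85 without 170019, and that of Rps19 was 0.88. The other members with the largest fold changes overlapped between groups. Rpl22l1 had 229, 136 and 70.7 CPM in dFLEx and 23.95 and 73.0 CPM in KP, a log2 fold change of 1.58. Rps3, a small subunit protein at the mRNA entry site, had 6506, 2570 and 1750 CPM and 1202 and 1956 CPM, a log2 fold change of 1.19. Rplp0 had 10305, 5485 and 2815 CPM and 2426 and 3015 CPM, also 1.19. Rps27l had 446, 239 and 108 CPM and 84.0 and 156 CPM, a log2 fold change of 1.14. Without 170019 these 4 values were 1.02, 0.39, 0.56 and 0.47, and without 3802 that of Rpl22l1 was 2.62. In all 4 genes 3802 was above 170025, and adjusted p ran from 0.560 to 0.741 (edgeR).

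At the low end no member passed the test either. Rplp1, an acidic stalk protein that helps recruit elongation factors, had 6133, 3142 and 975 CPM in dFLEx and 1125 and 8821 CPM in KP, with a log2 fold change of -0.54 (SE 0.97) that was 1.62 without 3802. Rpsa, which is also known as the precursor of a laminin receptor, had 9670, 4932 and 1890 CPM and 2367 and 11484 CPM, with a log2 fold change of -0.33 (SE 0.85) that was 1.24 without 3802. Rpl38, whose loss causes the tail-short phenotype in mice, had 1194, 582 and 169 CPM and 163 and 1296 CPM, with a log2 fold change of -0.17 (SE 1.00) that was 2.01 without 3802. In each of these genes 3802 held a level near or above that of 170019 and 3800 a level near that of 170025, so the groups overlapped fully. Rps19bp1, which is no ribosomal protein, had 76.3, 49.3 and 30.4 CPM and 62.1 and 53.5 CPM (log2 fold change -0.15, SE 0.60).

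Levels were compared between genes only per kilobase of exon in the deposited gene models. By this measure Rplp1, Rps15, Rps14, Rpl41 and Rplp0 were the most abundant canonical members, with means over tumors of 8095, 4775, 4114, 2957 and 2899 CPM per kb. Rplp0 forms the base of the stalk on which Rplp1 sits, and Rps15 lies near the decoding site of the small subunit. Rps15 had 6445, 2457 and 820 CPM in dFLEx and 614 and 4707 CPM in KP (log2 fold change 0.28, SE 1.03). The means of all 5 follow the spread between tumors: Rplp1 ranged from 1953 CPM per kb in 170025 to 17678 CPM per kb in 3802.

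The lowest canonical members were Rpl24, Rps10, Rpl13a, Rpl30 and Rps15a, with means of 1.76, 2.40, 38.999, 92.5 and 158 CPM per kb. Rpl24 and Rps10 stayed under 100 CPM in all 5 tumors, at 0.416 to 3.56 CPM and 3.87 to 10.1 CPM, with log2 fold changes of -0.13 and 0.63, which were 2.07 for Rpl24 without 3802 and 0.11 for Rps10 without 170019. Both encode constituents of every ribosome, and their counts are uncertain as measures of mRNA, since reads over several genes or with several alignments were not counted. Another annotated gene, Gm28037, covers 47.0% of the exonic bases of Rpl24, and Gm15420 and Gm49804 cover 28.7% of those of Rps10, whose 4 -ps copies held 277% as many counts as the gene itself. Rpl13a and Rpl30 share 35.4% and 24.8% of their exonic bases with other genes. In all, 15 of the 77 canonical members shared over 10% of their exonic bases, and their median level was 476 CPM per kb against 663 CPM per kb in the other 62. Rpl35 shared 66.2% and had 273 to 1246 CPM. The part of exon sharing in these levels was not tested. The median log2 fold changes of the 15 and the 62 were 0.67 and 0.68.

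The paralogs were set against their parent genes within each tumor, as log2 ratios of counts per kilobase, which no scaling between libraries can move. Rps27l stood at 18.6% to 36.1% of the level of Rps27 and Rpl22l1 at 13.98% to 44.3% of that of Rpl22. Rpl7l1, which takes part in ribosome assembly, stood at 4.95% to 26.1% of Rpl7, and Rpl3l at 1.06% to 9.81% of Rpl3. Rpl36al and Rpl39l stayed below 1.12% of Rpl36a and Rpl39. Over the 6 pairs the difference in mean log2 ratio, dFLEx minus KP, was 1.73 for Rpl3l, 0.96 for Rpl39l, 0.81 for Rpl22l1, 0.26 for Rps27l, 0.07 for Rpl36al and -1.01 for Rpl7l1. Exact permutation tests (two-sided, tumors as units) gave p from 0.2 to 1.0, and 0.72 or more after adjustment over the 6 pairs, in a design whose smallest p is 0.2.

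The Rpl3l to Rpl3 ratio did not overlap between groups, at -6.33, -3.35 and -4.75 in dFLEx and -6.52 and -6.56 in KP, but 170019 lay close to KP tumor 3800. Rpl22l1 to Rpl22 was -1.18, -1.50 and -2.06 in 170019, 170024 and 170025 and -2.84 and -1.93 in 3800 and 3802. Rps27l to Rps27 was -2.11, -1.55 and -1.47 in dFLEx and -1.51 and -2.42 in KP, so within each group the paralog stood lowest beside its parent where the family's share was highest. The Rpl7l1 difference was -0.06 without 3800 and -1.97 without 3802, and the Rpl39l difference was -0.92 without 3800 and 2.84 without 3802, where 3800 had 8 counts of Rpl39l in all. As levels, Rpl7l1 had 150, 110 and 125 CPM in dFLEx and 225 and 99.3 CPM in KP (log2 fold change -0.34, SE 0.58), and Rpl39l had 0.867 to 4.53 CPM in dFLEx and 0.107 and 5.45 CPM in KP (-0.19, SE 1.35).

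The parents Rpl7, Rpl10, Rpl22, Rpl36a, Rpl39, Rps4x and Rps27 had log2 fold changes from 0.33 (Rpl39) to 1.01 (Rpl10), none called. Rpl10l, the testis paralog of Rpl10, had 0 counts in all 9 libraries, which allows up to 0.146 CPM in the shallowest library and 0.0648 CPM in the deepest. Rps4l had 24.7, 16.9 and 15.1 CPM in dFLEx and 1.88 and 36.2 CPM in KP, a 19.2-fold gap between the KP tumors. Of the retrotransposed copies, Rps27rt had 2.59 to 17.7 CPM in the order of its parent, and Rpl27rt had at most 20 counts in every library except that of 3802, where it had 48 (log2 fold change -1.33, SE 1.83). Rplp1rt and Rps23rg1 had at most 10 counts in any library and were not tested, like Rpl10l.

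Fau and Rack1, ribosomal proteins whose symbols the rule does not catch, showed the family's order of tumors within each group. Fau, a ubiquitin-like protein fused to a small subunit protein, had 5668, 2171 and 793 CPM in dFLEx and 792 and 3601 CPM in KP (log2 fold change 0.39, SE 0.93). Rack1, a scaffold protein on the small subunit, had 4997, 2136 and 1353 CPM and 1796 and 2565 CPM (0.38, SE 0.67).

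Among 20 other translation genes with TOP-type starts, 17 had log2 fold changes above 0, beside 43.7% of all tested genes, with a median of 0.59. Of the 20, 0 were called, beside 0.182% of all tested genes. An unadjusted p under 0.05 was reached by 2 of the 20, beside 10.6% of all tested genes, and both were non-coding host genes of small nucleolar RNAs. Gas5 had 364, 304 and 196 CPM in dFLEx and 36.0 and 39.7 CPM in KP (log2 fold change 2.93, SE 0.61, adjusted p = 0.121, edgeR). Snhg1 had 299, 149 and 91.9 CPM and 32.3 and 52.1 CPM (2.09, SE 0.72, adjusted p = 0.328, edgeR). The summed level of the list was 24745, 21106 and 23563 CPM in dFLEx and 19806 and 12419 CPM in KP. Its median log2 ratio was 0.51 for 170019 over 170025 and -0.49 for 3802 over 3800, so the list did not follow the family within KP.

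The lists for ribosome biogenesis and from mTORC1 to translation did not follow the family in either group. Of 40 genes for ribosome biogenesis, 10 had log2 fold changes above 0 (median -0.32), beside 43.7% of all tested genes. Every dFLEx tumor was below both KP tumors for 6 of the 40, beside 11.7% of all tested genes, and 0 were called, beside 0.182%. Within groups their medians ran the other way, at -0.25 for 170019 over 170025 and -0.96 for 3802 over 3800. The nucleolar helicase Ddx21 had -1.21 (SE 0.72), which was 0.07 without 3800, and Imp3, of the small subunit processome, had 1.13 (SE 0.83), which was 0.39 without 170019. Among the 18 genes from mTORC1 to translation the medians of those within-group ratios were -1.41 and -1.57. Their fold change median was -0.17, and 0 were called, beside 0.182% of all tested genes. The mTORC1 component Rptor had -1.23 (SE 1.00), which was 1.17 without 3800, and the mTOR inhibitor Deptor -1.27 (SE 0.61). For 170019 over 170025 and 3802 over 3800, other protein-coding genes with coding lengths above 3000 bases had median log2 ratios of -1.68 and -1.41. Those up to 300 bases had 1.28 and 0.68. The gene lists outside the family were not set beside genes of their own coding length. The part of length in the within-group ratios of these lists was not tested.

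Of 10 tested genes for chaperones and import of ribosomal proteins 6 were above 0 (median 0.08), beside 43.7% of all tested genes. Pdcd2l was among them (0.86, SE 0.59), and Heatr3, which carries Rpl5 into the nucleus, had -1.20 (SE 0.52). Of 9 genes around Mdm2 and p53, 8 were above 0 (median 0.41), beside 43.7% of all tested genes, and 8 of the 9 overlapped between groups. The highest were the p53 targets Ccng1 (1.74, SE 0.80) and Eda2r (0.84, SE 0.84), which were 1.16 and 0.16 without 3802. Cdkn1a and Sesn1, in the same list, had 0.02 (SE 0.52) and 0.03 (SE 0.58). Of 77 tested genes for mitochondrial ribosomal proteins 56 were above 0 (median 0.31), beside the same 43.7%, with Mrps34 at 1.65 (SE 0.68) and Mrps6 at -1.60 (SE 0.62). In these 3 lists 0 genes were called, beside 0.182% of all tested genes. In each direction 1 gene, Mrps34 and Mrps6, reached an unadjusted p under 0.05, beside 10.6% of all tested genes in either direction. The median log2 ratios of the 3 lists for 170019 over 170025 were 0.20, -1.76 and 1.28, in the order given. For 3802 over 3800 the medians were -0.24, -1.41 and 0.19. The 7 CIC::DUX4 target genes examined all had their dFLEx levels above their KP levels, with a median log2 fold change of 4.02. Of these, 0 were called, with a smallest adjusted p of 0.0517 (edgeR). The study names these genes from its own RNA-seq of dFLEx against KP tumors. They therefore show only that the group labels were read as in the study.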

How the data were processed

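Bulk RNA was sequenced from 3 dFLEx and 2 KP tumors as 150 bp paired-end, rRNA-depleted libraries. Per the labels and the study's methods, the authors trimmed reads with Trimmomatic 0.39, aligned them with STAR 2.7.10a to mm39 with a CIC::DUX4 contig and counted them with featureCounts (Subread 2.0.3). The deposited values are whole counts per gene, unstranded, with both mates counted and with reads of several alignments or several genes left out. Of 10 labelled libraries, the second of 3802 was not analysed here. Gene IDs were matched to GENCODE M39, 56017 of 56750 (98.7%). Counts of a tumor's libraries were summed and fitted with edgeR 4.0.16 (R 4.3.3): filterByExpr, TMM factors of 0.848 to 1.21, a quasi-likelihood test of dFLEx against KP, and Benjamini-Hochberg adjustment over 24743 genes at 0.05. SE was taken as the size of the log2 fold change over the root of its F statistic. The labels give each tumor its own number, and whether each number is a separate mouse was not checked here. The p-values therefore measure only the spread between these tumors. Alternatives used DESeq2 1.42.0, limma 3.58.1, other scalings and filters, and each tumor left out. Exact permutation tests used SciPy 1.17.1. Floors are 3 counts. The fit was run on simulated counts with known changes and a single set dispersion. No shift shared by the genes of a tumor was simulated, so that run cannot show how the fit behaves at the spread seen here. Members, gene lists and tests were chosen with earlier results of these data known, and the retrotransposed copies were set apart once their symbols were seen. Genes were named by rule: the 5 most and 5 least abundant canonical members, the 8 largest and 8 smallest log2 fold changes, paralogs and their parents, the 5 canonical members farthest from the family's median change, ribosomal proteins with other symbols, and up to 4 genes of each other list. Rpl4 and the 15 members whose groups did not overlap were named after their values were seen. A further allele of the KP genotype and 1 gene among the ribosomal proteins with other symbols are not reported here.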

Additional observations from a re-analysis of the deposited data

How the results depend on the processing

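The cause of each change below was not tested. With libraries as independent samples, edgeR called 3 members and 14 genes of the other translation lists, beside 17.1% of all tested genes. DESeq2 on the same libraries called 8 and 21, beside 20.4%. DESeq2 on tumor sums called 2 and 1, beside 6.66%, limma-voom 1 and 1, beside 2.78%, and edgeR with no filter 2 and 1, beside 1.98%. The list counts are given without a share of the lists, so they show only how the number called changed with the setting. With the duplicate number as a replicate block the counts were 2 and 10, beside 12.7% of all tested genes. Deviations of same-numbered libraries correlated at -0.0083 to 0.072, so the duplicate numbers did not pair the samples. The other settings called 0 members, and members called were 0 with any tumor left out.

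Log2 fold changes that changed sign were, for libraries in edgeR, Rpl24 0.18, Rpl38 0.13, Rpl39l 0.14 and Rps4l 0.29, for libraries in DESeq2, 0.13, 0.072, 0.057 and 0.21 for the same genes, and with no filter 0.11, 0.065, 0.084 and 0.26. In limma-voom they were Rpl24 0.066, Rpl27rt 1.85, Rpl38 0.037, Rpl39l 2.24 and Rps4l 1.42, and with the replicate block Rpl24 0.30, Rpl38 0.32, Rpl39l 0.72, Rps4l 0.71 and Rpsa 0.068. With library totals they were Fau -0.025, Rpl39 -0.061, Rpl41 -0.088 and Rps15 -0.14, with upper quartile scaling Rps15 -0.057, and with the GC and length trend removed Fau -0.46, Rpl13a -0.019, Rpl41 -0.22, Rps10 -0.13 and Rps15 -0.23.

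With single tumors left out, log2 fold changes that crossed 0 ran from -1.81 to 0.067 for Ddx21, -0.65 to 1.88 for Fau, -0.38 to 0.70 for Rack1, -0.14 to 1.73 for Rpl13a, -1.28 to 2.07 for Rpl24, -2.19 to 7.60 for Rpl27rt, -1.05 to 2.01 for Rpl38, -0.45 to 1.53 for Rpl39, -1.14 to 4.48 for Rpl39l, -0.82 to 2.49 for Rpl41, -0.80 to 0.53 for Rpl7l1, -1.36 to 1.62 for Rplp1, -0.81 to 2.23 for Rps14, -0.79 to 2.42 for Rps15, -0.58 to 0.12 for Rps19bp1, -0.18 to 2.05 for Rps27, -0.28 to 1.82 for Rps27rt, -0.78 to 3.35 for Rps4l, -1.10 to 1.24 for Rpsa and -2.13 to 1.17 for Rptor. The Rpl39l to Rpl39 difference ran from -0.92 to 2.84 and that of Rpl7l1 to Rpl7 from -1.97 to -0.055. Of 733 values of single genes under the other alternatives, 658 kept their direction and side of the threshold. Depth limits the retrotransposed copies, Rpl39l and Rpl36al, which had few counts.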
